A study of Mus musculus with 38 samples.

Results

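Most Slc25 genes encode solute carriers of the mitochondrial inner membrane. The family was followed here in brown adipose tissue of C57BL/6J mice on 2 diets and 3 doses of a plant formulation. The members are all gene names on the array that start with Slc25a, and these were 42 of the 29411 gene names. Of the 42 members, 39 clearly exceeded background on 6 or more of the 38 arrays and entered the tests, together with 21625 genes in all. Slc25a21, Slc25a31 and Slc25a41 were above background on 1, 3 and 3 arrays, and no fold is given for them. Slc25a31 is the ADP/ATP carrier of germ cells. RefSeq holds 5 further members that the array lists under older names, and these were not counted as members.

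LFC mice ate a low fat diet and HFC mice a high fat diet with added sucrose. HF5, HF20 and HF75 mice ate that high fat diet and received 5, 20 or 75 µg of the ethnobotanical formulation Kal-1. All mice were C57BL/6J and were put on their diets after weaning, and the labels name no genetic change. LFC and HFC had 10 arrays each, from Day 6 to Week 18, and the dose groups had 6 each, from Week 3 to Week 18. Each group had 1 array per time point, so time points served as replicates. The p-values therefore measure the spread between time points, and the labels do not say how many animals an array stands for.

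A typical Slc25 carrier is a small membrane protein that exchanges or imports 1 kind of solute between the cytosol and the mitochondrial matrix. Brown fat burns fatty acids to make heat. It takes up acylcarnitines into the matrix for this. Phosphate and ADP also enter the matrix, and fat is made from citrate that leaves it. The uncoupling protein Ucp1 belongs to the same carrier family but does not carry the Slc25a name on this array.

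The probes for the highest signals, the phosphate carrier and the acylcarnitine carrier are shown because these genes are described at length below. Capitals in the first pair mark bases that are the same in both at the best alignment without gaps, where 45 of 54 overlapping bases (83.3%) were the same and the longest shared run was 17 bases. Slc25a4 and Slc25a5 are the paired adenine nucleotide translocases, and signal shared between their probes was not tested.
Slc25a4: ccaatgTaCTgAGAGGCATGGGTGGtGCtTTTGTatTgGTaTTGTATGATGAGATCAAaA
Slc25a5: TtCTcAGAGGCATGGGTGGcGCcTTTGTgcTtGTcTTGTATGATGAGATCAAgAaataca
Slc25a3: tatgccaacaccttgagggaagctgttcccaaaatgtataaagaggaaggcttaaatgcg
Slc25a20: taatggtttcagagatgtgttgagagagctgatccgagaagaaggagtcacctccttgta
Of the 4 probe names for Slc25a44, 3 hold 1 identical sequence, so they are not separate measures of it.

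The 250 bases before the start of Slc25a1 and of Slc25a34 are shown because these genes had the smallest p-values of all members between the diets, in opposite directions. The windows are from RefSeq on GRCm38.p6, at chr16:17928220-17928469 and chr4:141623835-141624084, both read from the minus strand. Capitals mark the match to the CCAAT box, read on either strand.
Slc25a1: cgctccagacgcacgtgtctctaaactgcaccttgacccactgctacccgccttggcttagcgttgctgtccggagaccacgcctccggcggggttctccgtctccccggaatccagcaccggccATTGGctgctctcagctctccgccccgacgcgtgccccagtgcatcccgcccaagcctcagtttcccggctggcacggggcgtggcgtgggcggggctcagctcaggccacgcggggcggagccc
Slc25a34: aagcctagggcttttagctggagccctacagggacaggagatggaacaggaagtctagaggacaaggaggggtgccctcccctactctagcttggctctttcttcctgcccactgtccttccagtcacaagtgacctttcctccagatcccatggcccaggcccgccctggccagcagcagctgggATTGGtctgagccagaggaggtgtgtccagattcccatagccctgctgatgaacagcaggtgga
GC content was 70.0% for Slc25a1 and 58.4% for Slc25a34. CCAAT was in 19 of 41 windows of 32 members (46.3%), against 33.8% of all 32851 windows. The ETS core CCGGAAG was in 12.2% of member windows and 6.91% of all windows, the NRF1 palindrome in 4.9% and 3.74%, and the SREBP element TCACNCCAC in 2.4% and 1.05%. The SREBP element was in the window of Slc25a18 alone among the members. A match only says that these letters are there.

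All values below are log2 of the processed signal minus the 75th percentile of the array. The 75th percentile of raw signal ran from 35.1 to 1209 intensity units over the arrays, and 36.6 to 78.8% of spots were well above background. On 11 arrays it lay above 600 (lowest 625.4), and on the other 27 at 429.8 or below. The brighter arrays were 4 of LFC, 2 of HFC, 4 of HF20, 1 of HF75 and 0 of HF5. Of the 39 tested members, 25 were higher on the brighter arrays, and the median difference was 0.71, against -0.30 over all genes. Slc25a35, Slc25a33 and Slc25a1 differed by 2.80, 2.77 and 2.56 between the brightness classes. Differences between arrays of equal brightness class, or with the class as a covariate, are therefore given beside many of the values below. The share of this difference in the results was not tested.

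Brown fat markers were present. Ucp1, the uncoupling protein, Cidea, a lipid droplet protein, and Cox8b, a subunit of cytochrome oxidase, were at 3.38, 5.58 and 4.04 or higher on 37 arrays. On the HF75 array of Week 3 they were at -3.08, -1.78 and -2.01, and 9 of the 39 members had their lowest value of all 38 arrays there. Of the 9 brown adipocyte markers, Prdm16 and Adrb3 were not low on it, at 1.67 and 2.18 against means of 1.77 and 2.68. The mean level of the 6 macrophage markers was the highest of all arrays there, at 0.97. That of the 6 white adipocyte markers was -0.67 there, with 6 of 6 above background. Only the HFC array of Week 12 was higher, at -0.48. Hoxc9, a white adipocyte marker, had its highest value of all arrays on the HF75 array of Week 3, at -0.28, while Adipoq and Trim14 were below their means. The part of either list in the values of the members was not tested. The HF75 comparisons are given with that array and then, for the members and genes named, without it. The mean level of the 12 skeletal muscle markers ran from -5.04 to 5.27 and was highest on the HF75 array of Week 12, the HFC array of Day 10 and the HF20 array of Week 15. The mean level of the 4 hepatocyte markers ran from -8.05 to 1.25. It was highest on the HF20 array of Week 6, with 4 of 4 above background, and the next array was at -0.26. HF20 is therefore also given without that array. The mean level of germ cell markers ran from -6.36 to -2.60.

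**Figure D1:**
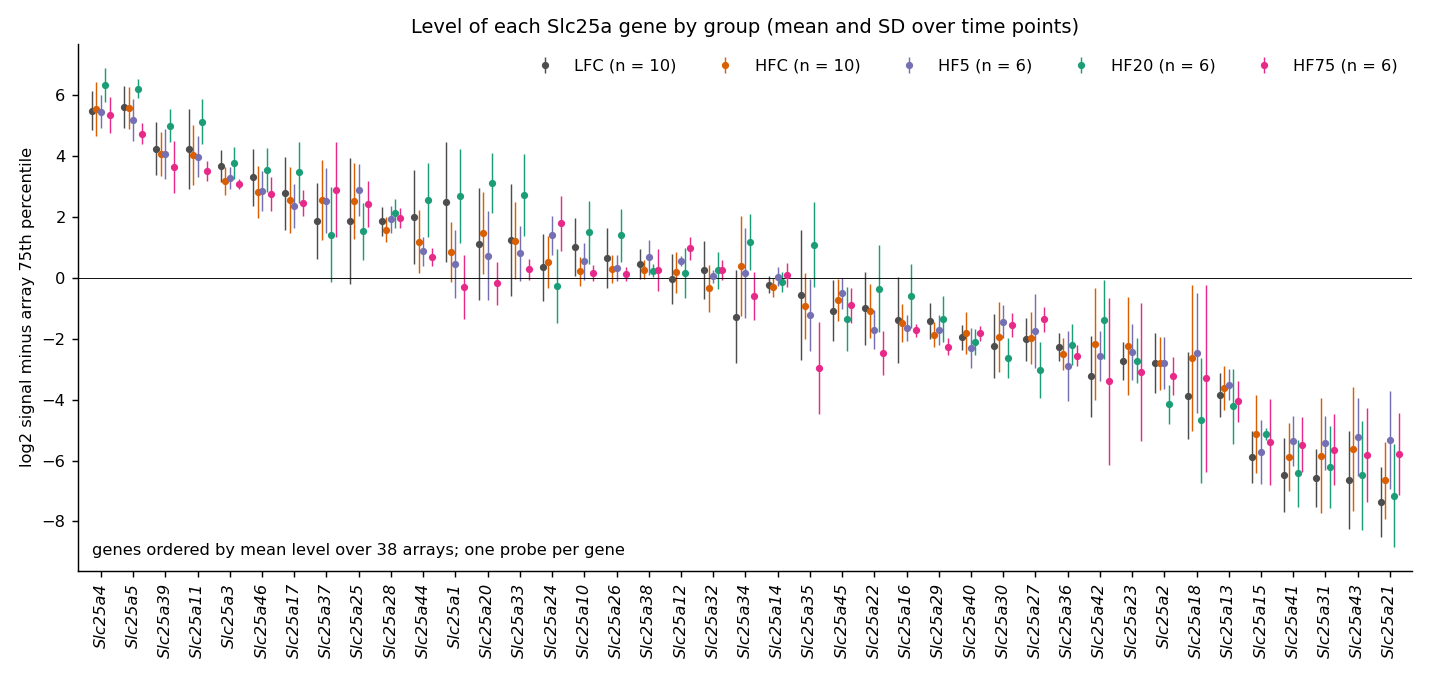
Log2 signal relative to the 75th percentile of the array (vertical axis) for 41 Slc25a genes, ordered by the mean over 38 arrays. Points are the mean and bars the SD over the time points of each group, and the means over all arrays run from 5.62 for Slc25a4 down to -6.57 for Slc25a21, which was above background on 1 array.

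The probes of both ADP/ATP carriers gave the strongest signals of the family. Slc25a4 had a mean of 5.62 (SD 0.72, n = 38) and Slc25a5 a mean of 5.50 (SD 0.72), and each was saturated on 10 arrays. Slc25a39, a glutathione carrier, was at 4.2 (SD 0.83), and Slc25a11, the oxoglutarate carrier of the malate-aspartate shuttle, at 4.17 (SD 1.02). Slc25a3, the phosphate carrier, was at 3.41 (SD 0.51). These are signals of different probes and give no order of RNA amounts.

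The widest spread over the 38 arrays was in Slc25a18, glutamate carrier 2, with an SD of 2.21. Slc25a35, whose substrate is not named here, had an SD of 1.90, and Slc25a1, the citrate carrier, an SD of 1.77. The steadiest was Slc25a14, an uncoupling protein relative, with an SD of 0.34. Slc25a18 was well above background on 10 of 10 LFC, 8 of 10 HFC, 4 of 6 HF5, 3 of 6 HF20 and 2 of 6 HF75 arrays. Its values at the low end are therefore uncertain.

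Whether the high fat diet moved the carriers was asked by setting HFC against LFC at 10 time points. No member passed the test, and 0% of all 21625 genes did (limma, adjusted p under 0.05, two-sided). At an unadjusted p under 0.05, 2 members were higher, where 4.57% of all genes were, and 4 were lower, where 2.24% were. These are 5.13% and 10.3% of the 39 members. The median difference of the members was -0.02, against 0.05 over all genes, and 18 members were higher and 21 lower. With the brightness class as a covariate, 6 members were higher at an unadjusted p under 0.05 (3.97% of all genes) and 3 lower (2.65%). The member median was then 0.12, against 0.0003 over all genes.

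All 3 tested carboxylate carriers were lower in HFC, with a median of -0.81. Slc25a1, which moves citrate to the cytosol for fatty acid synthesis, ran from -0.35 to 5.24 in LFC (median 2.19) and from -0.54 to 2.46 in HFC (median 0.74). It was lower in HFC at 8 of 10 time points, and the ranges overlapped. The difference was -1.66 (SE 0.55, 95% interval -2.87 to -0.45, unadjusted p = 0.0113, adjusted p = 0.653 by limma). At the 6 time points whose arrays were of equal brightness class it was -0.82, and at the other 4 it was -2.92. The call at an unadjusted p stood with the class as a covariate, at -1.19 (p = 0.0125 by limma), and the adjusted p was then 0.659.

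Slc25a10, which exchanges malate or succinate for phosphate, had medians of 0.85 in LFC and 0.24 in HFC. It differed by -0.81 (SE 0.37, unadjusted p = 0.051 by limma), and by -0.20 at time points of equal class. Slc25a11 had medians of 3.71 and 3.73 and differed by -0.20 (SE 0.39, 95% interval -1.04 to 0.65). At time points of equal class it differed by 0.28 and at the others by -0.91. Acly, which splits citrate in the cytosol, differed by -2.04 (SE 0.43, unadjusted p = 0.000557), and Me1, malic enzyme, by -2.14 (SE 0.45, unadjusted p = 0.000474). Neither passed the test, with an adjusted p of 0.653 by limma for both. Mdh1, the cytosolic malate dehydrogenase, differed by -0.14 (unadjusted p = 0.703 by limma).

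Slc25a34 had the smallest p of all members. It ran from -3.90 to 0.92 in LFC (median -0.83) and from -0.70 to 4.64 in HFC (median -0.34), so the ranges overlapped. It was higher in HFC at 9 of 10 time points, by 1.66 (SE 0.47, 95% interval 0.63 to 2.69, unadjusted p = 0.00446, adjusted p = 0.653 by limma). At the 6 time points of equal class it was higher at all 6, by 1.82, and at the other 4 the difference was 1.43. Its highest value, 4.64, was on the HFC array of Day 10, where the muscle markers averaged 5.10. Leaving out single time points gave 1.30 to 1.90, and the difference was 0.85 with normexp background correction.

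Slc25a3 imports the phosphate that is joined to ADP. It ran from 2.90 to 4.50 in LFC (median 3.62) and from 2.18 to 3.67 in HFC (median 3.28). It was lower in HFC at 10 of 10 time points, and was the 1 member with the same sign at every time point, which 0.217% of all genes were. The difference was -0.51 (SE 0.19, 95% interval -0.91 to -0.10, unadjusted p = 0.0195, adjusted p = 0.653 by limma). It was -0.28 at time points of equal class and -0.85 at the others.

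Slc25a32, the carrier of folate and FAD, was lower at 9 of 10 time points, by -0.61 (SE 0.24, unadjusted p = 0.0262). At time points of equal class it differed by -0.32. Its lowest value, -2.19, was also on the HFC array of Day 10.

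**Figure D2:**
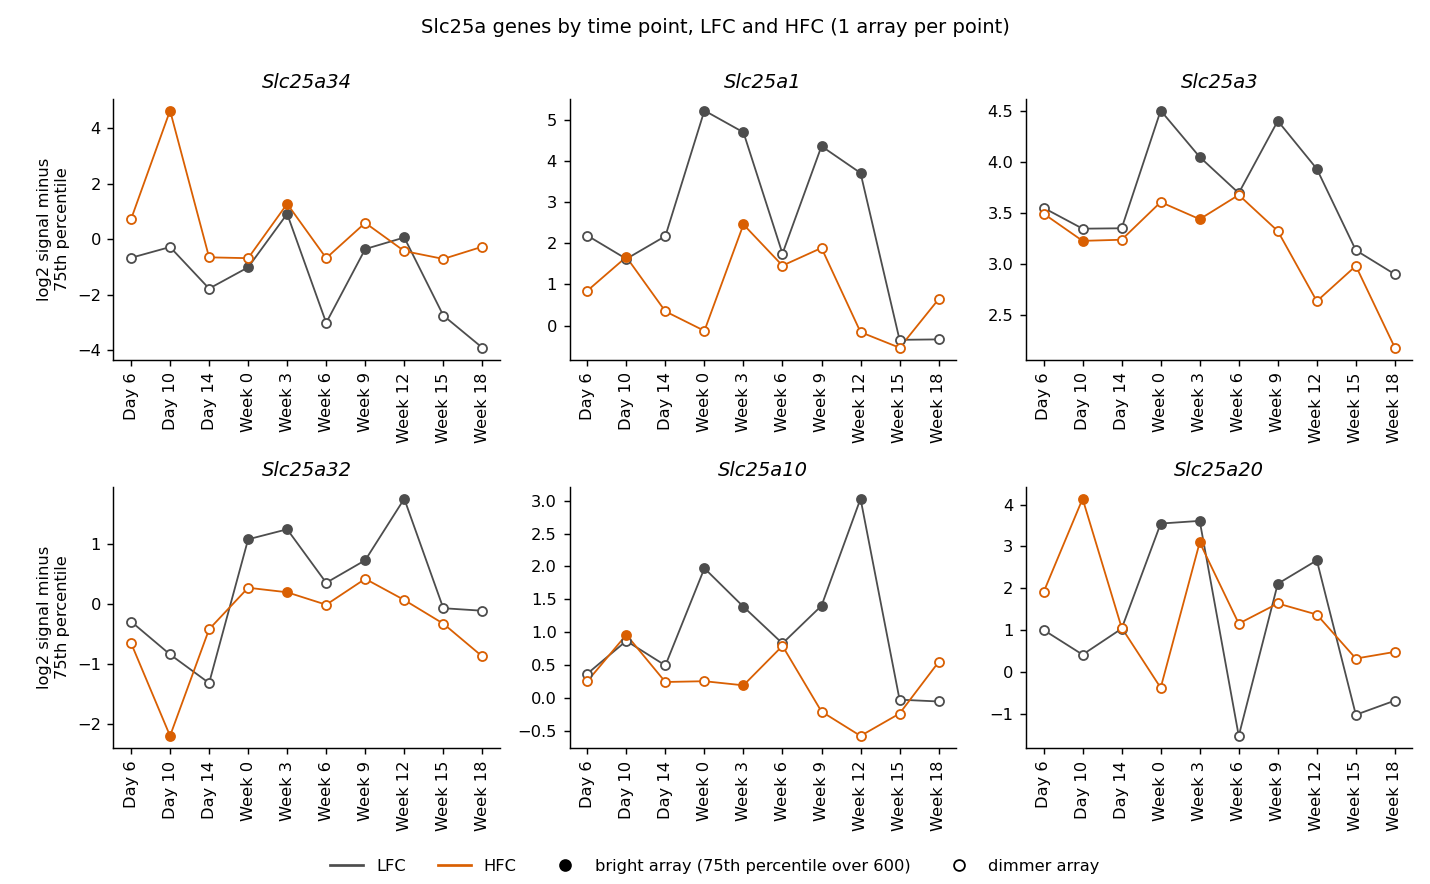
Log2 signal relative to the 75th percentile of the array (vertical axes) of 6 Slc25a genes in LFC and HFC by time point, 1 array per point, with filled points for the brighter arrays and open points for the others. Slc25a3 is lower in HFC at 10 of 10 time points, and Slc25a34 is higher in HFC at 9 of 10.

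Slc25a20 brings acylcarnitines to the matrix for oxidation. It ran from -1.53 to 3.61 in LFC (median 1.02) and from -0.38 to 4.14 in HFC (median 1.26). The difference was 0.36 (SE 0.61, 95% interval -0.97 to 1.69, p = 0.562 by limma). Without the HFC array of Day 10 it was -0.01. At time points of equal class it was 0.93, higher at 5 of 6, and at the other 4 it was -0.49.

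Both ADP/ATP carriers lay close between the diets, though their probes were saturated on some arrays, which bounds the high values. Slc25a4 had medians of 5.40 in LFC and 5.31 in HFC and differed by 0.07 (95% interval -0.53 to 0.66). Its second probe differed by -0.28. At time points of equal class the first probe differed by 0.06. Slc25a5 had medians of 5.70 and 5.36 and differed by -0.02 (95% interval -0.48 to 0.44), with 0.14 at time points of equal class and -0.27 at the others. Slc25a44, which imports branched-chain amino acids into brown fat mitochondria, was lower at 8 of 10 time points by -0.81 (SE 0.48, p = 0.115 by limma). At time points of equal class it differed by -0.29.

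**Figure D3:**
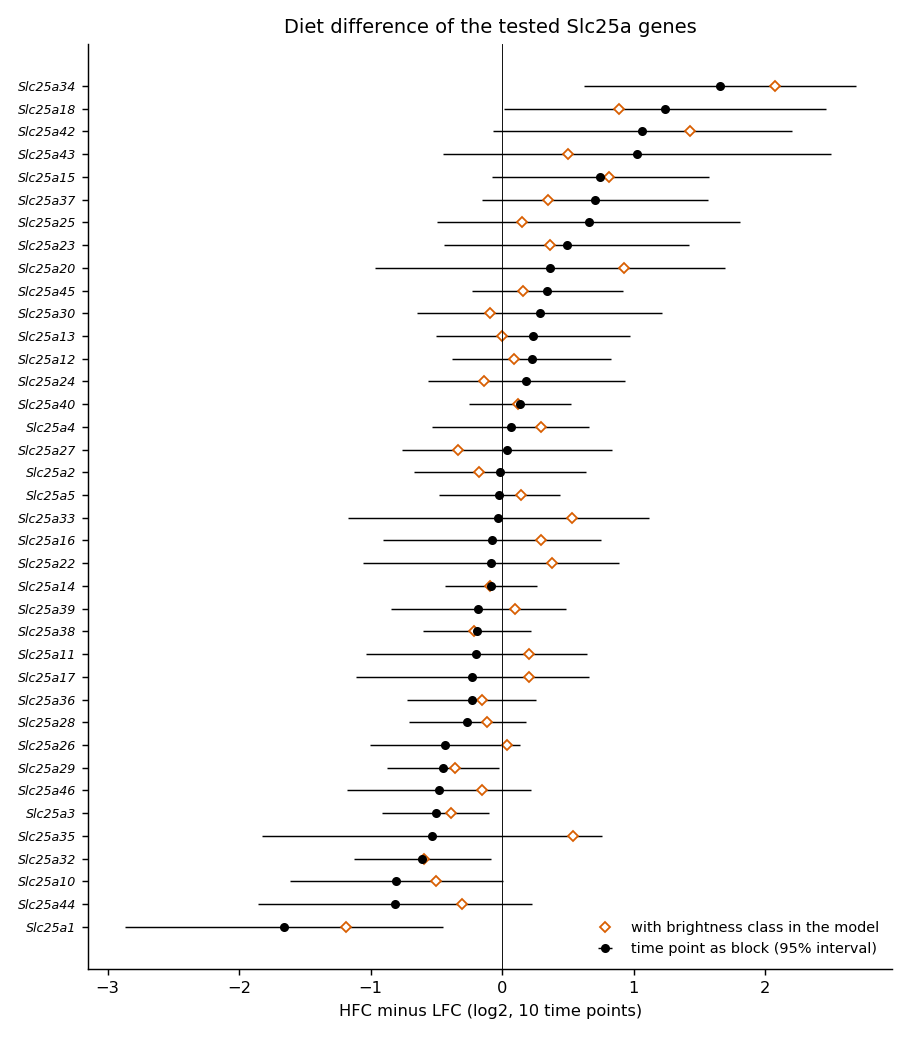
Difference of HFC from LFC in log2 units (horizontal axis) for 38 of the 39 tested members over 10 time points. Black points and bars are the limma estimate with its 95% interval, and open diamonds the estimate with the brightness class in the model. Slc25a34 at 1.66 and Slc25a1 at -1.66 are farthest from 0.

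Among the other groups, the 9 tested amino acid carriers had a median difference of -0.02 and ran from -0.81 to 1.24. The 10 carriers of cofactors and iron had a median of -0.13, and the 8 of nucleotides and phosphate one of 0.02. Of the latter, 4 were higher and 4 lower. The 3 uncoupling protein relatives ran from -0.09 to 0.29. Slc25a29, a carrier of basic amino acids, differed by -0.45 (unadjusted p = 0.0396), and Slc25a18 by 1.24 (unadjusted p = 0.0482). Slc25a35 differed by -0.53 (SE 0.59) over 9 time points, since its spot on the HFC array of Day 10 was marked as an outlier and left out.

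No marker of another cell type passed the test between the diets. All 6 lymphocyte markers were higher in HFC at an unadjusted p under 0.05, with a median of 1.16, and their mean level ran from -5.21 to -2.57 in LFC and from -4.59 to -1.17 in HFC. All 6 erythroid markers were higher, with a median of 0.90, and 1 of them had an unadjusted p under 0.05. Their part in the values of the carriers was not tested. In bulk tissue, fewer cells of a type and less RNA per cell cannot be told apart.

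When the test used the 6 weeks shared with the dose groups, no member passed and 0.00925% of all genes did. At an unadjusted p under 0.05, 0 members were higher (9.84% of all genes) and 3 were lower (4.07%). The 3 were Slc25a32 at -0.74 (lower at 6 of 6), Slc25a3 at -0.64 (6 of 6) and Slc25a10 at -1.01 (5 of 6). Slc25a10 differed by -0.49 without Week 12. The member median was -0.14, against 0.06 over all genes. With the brightness class as a covariate, 2 members were higher at that unadjusted p (4.13% of all genes) and 0 lower (2.12%). The member median was then 0.02, against -0.01 over all genes.

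Whether the diet difference moved with time was tested as its slope per 100 days on diet. No member passed, and 0% of all genes did. At an unadjusted p under 0.05, 2 members had a higher slope (13.2% of all genes) and 0 a lower one (2.03%). The members had a median slope of -0.25, against -0.01 over all genes.

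Those 2 members were Slc25a23, a calcium-regulated carrier of ATP-Mg and phosphate, and Slc25a18. In HFC, Slc25a23 was at -1.84, -1.02, -1.02 and 1.24 at Weeks 9, 12, 15 and 18. LFC was at -3.34, -3.44, -2.93 and -1.37 in the same weeks. HFC was higher in each of these weeks, while at Week 0 it was at -4.16 and LFC at -2.79. The slope was 2.72 per 100 days (SE 0.46, unadjusted p = 0.000118, adjusted p = 0.0854 by limma). No gene had a smaller adjusted p, but many genes can share 1 adjusted value, so it does not rank Slc25a23 first.

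Slc25a18 in HFC was at -2.40, -1.14, -0.26 and 2.5 at Weeks 9, 12, 15 and 18. In LFC it was at -4.54, -5.39, -3.59 and -1.05. The slope was 3.35 per 100 days (SE 0.72, unadjusted p = 0.000782, adjusted p = 0.0907 by limma). With the brightness class as a covariate, the slopes of Slc25a23 and Slc25a18 were 2.68 and 2.99, and the adjusted p was 0.0298 and 0.0336 by limma. At an unadjusted p under 0.05, 4 members had a higher slope in that fit (15.5% of all genes) and 2 a lower one (9.67%). The share of all genes that passed the adjusted p in that fit is not given here. These 2 adjusted calls therefore do not show a change particular to the carriers. The class has only 2 levels. At Weeks 9, 12, 15 and 18 the 75th percentiles were 48.3, 120, 239 and 49.8 in HFC, and 1023, 830, 197 and 148 in LFC. With the log2 75th percentile itself as a covariate, no member was called. Without the HFC array of Week 18 the slopes were 2.81 and 3.65, and the adjusted p was 0.303 for both. With normexp background correction they were 1.0 and 1.23.

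**Figure D4:**
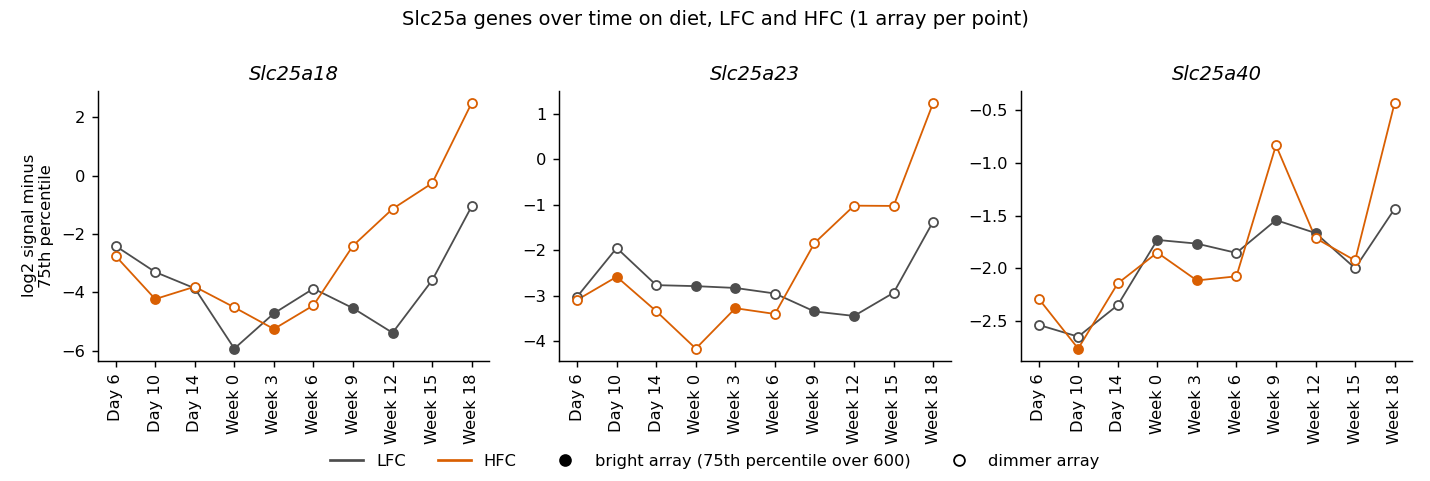
Log2 signal relative to the 75th percentile of the array (vertical axes) of Slc25a18, Slc25a23 and Slc25a40 in LFC and HFC by time point, 1 array per point, with filled points for the brighter arrays. HFC lies above LFC at Weeks 9, 12, 15 and 18 in Slc25a18 and Slc25a23.

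In the same 4 weeks, the mean level of the lymphocyte markers was -1.83 to -1.17 in HFC and -4.0 to -3.34 in LFC. That of the erythroid markers was 1.21 to 3.54 in HFC and -1.14 to 3.17 in LFC. Their part in the slopes was not tested. The dose groups did not share 1 course. Slc25a18 was at 1.18 on the HF5 array of Week 18, at -3.18 on that of HF20 and at -3.69 on that of HF75, and at 1.19 on the HF75 array of Week 12.

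Over days in both diets together, no member passed, and 1.41% of all genes did. Every scan day held arrays of a single time point, so time on diet and scan day cannot be told apart here. At an unadjusted p under 0.05, 4 members were higher with time (14.5% of all genes) and 4 lower (6.52%), and the member median was -0.24 per 100 days. Slc25a40, a glutathione carrier, had a slope of 0.80 (SE 0.23, adjusted p = 0.0661 by limma), and Slc25a18 one of 2.51 (adjusted p = 0.0661). Slc25a23 followed at 1.56 (adjusted p = 0.0701), and Slc25a29 had -0.60 (adjusted p = 0.143). Without Week 18 the slopes of Slc25a18 and Slc25a23 were 1.27 and 0.81. Slc25a3 had -0.55, Slc25a5 -0.67 and Slc25a34 -1.48, each with an unadjusted p under 0.05.

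Whether Kal-1 moved the carriers was asked for each dose against HFC. The 3 comparisons share the same 6 HFC arrays. For HF5, no member passed and 0% of all genes did, while 0 members were higher at an unadjusted p under 0.05 (3.46% of all genes) and 1 was lower (2.05%). That member was Slc25a40, at -0.79 (SE 0.32, unadjusted p = 0.0216, adjusted p = 0.814 by limma). It differed by -1.06 in the 5 weeks of equal class and by 0.56 in the other. Its probe was well above background on 4 of the 6 HF5 arrays. The member median was 0.01, against 0.02 over all genes. Slc25a12, aspartate-glutamate carrier 1 of the malate-aspartate shuttle, was higher at 6 of 6 weeks by 0.65 (SE 0.34, p = 0.0702), and by 0.45 in weeks of equal class. Slc25a38, the glycine carrier needed for haem synthesis, differed by 0.56 (p = 0.0947), and by 0.57 in weeks of equal class. Slc25a15, an ornithine carrier, was not well above background on any HF5 array.

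For HF20, no member passed and 0% of all genes did. At an unadjusted p under 0.05, 15 members were higher, 38.5% of the 39, where 13.4% of all genes were. Another 4 were lower, 10.3% of the 39, where 19.4% of all genes were. The member median was 0.56, against -0.18 over all genes. HF20 had 4 of its 6 arrays in the brighter class and HFC had 1 of 6 in those weeks. With the class as a covariate, 1 member was higher, where 0.412% of all genes were, and 0 were lower, where 2.65% were. The member median was then 0.23, against 0.01 over all genes. Without the HF20 array of Week 6, 3 members were higher (6.87% of all genes) and 3 lower (14.2%), and the median was 0.48, against -0.16. All 12 skeletal muscle markers were higher in HF20, with a median of 1.61, and 1 of them had an unadjusted p under 0.05. Without the array of Week 6 their median was 2.18. Their part in the values of the carriers was not tested.

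All 3 tested carboxylate carriers were among the 15. Slc25a10 ran from 0.37 to 2.84 in HF20 (median 1.5), and HFC was at -0.58 to 0.79 in those weeks. It was higher at 5 of 6 weeks by 1.42 (SE 0.44, unadjusted p = 0.00352, adjusted p = 0.121 by limma). In the 3 weeks with arrays of equal class it differed by 0.42, and in the others by 2.42. Slc25a1 differed by 1.74 and Slc25a11 by 1.19, and Slc25a11 by 0.18 in weeks of equal class and 2.19 in the others. For Slc25a1 the difference was -0.15 in weeks of equal class and 3.62 in the others. Without the HF20 array of Week 6, Slc25a10 differed by 1.36 (unadjusted p = 0.00897 by limma) and Slc25a1 by 1.71 (unadjusted p = 0.0605 by limma).

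Slc25a20 ran from 1.64 to 3.94 in HF20 (median 3.50) and was higher than HFC at 6 of 6 weeks. The difference was 1.79 (SE 0.75, unadjusted p = 0.026, adjusted p = 0.126 by limma), and it was 0.61 in weeks of equal class and 2.96 in the others. Slc25a44 was higher at 6 of 6 weeks by 1.53, with 0.17 in weeks of equal class and 2.88 in the others. Its 1 probe of different sequence, well above background on all 38 arrays, differed by 0.18 (p = 0.779 by limma). Slc25a3 differed by 0.74, Slc25a4 by 0.88 and Slc25a5 by 0.82, each higher at 5 of 6 weeks. In weeks of equal class these were 0.37, 0.08 and 0.20. Without the HF20 array of Week 6, Slc25a20 differed by 1.56 (unadjusted p = 0.0648 by limma). Slc25a4 is also the ADP/ATP carrier of muscle.

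Slc25a37, mitoferrin 1, imports iron for haem in erythroid cells. It ran from 0.07 to 3.70 in HF20 (median 0.62) and was lower than HFC at 6 of 6 weeks, by -1.29 (SE 0.48, unadjusted p = 0.0123, adjusted p = 0.122 by limma). The difference was -0.53 in weeks of equal class and -2.06 in the others, and -1.02 without the HF20 array of Week 6 (unadjusted p = 0.0471 by limma). All 6 erythroid markers were lower in HF20 too, with a median of -1.54, and 3 of them had an unadjusted p under 0.05. Their part was not tested. Slc25a18 differed by -2.85 (unadjusted p = 0.0134), with 3 of 6 HF20 arrays well above background.

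For HF75, no member passed and 0% of all genes did. At an unadjusted p under 0.05, 2 members were higher (4.95% of all genes) and 4 were lower (4.31%), and the member median was -0.25, against -0.03 over all genes. In each of the 6 weeks the HF75 and HFC arrays were of equal brightness class. With the class as a covariate, 2 members were higher at that unadjusted p (8.39% of all genes) and 8 lower (8.29%). The member median was again -0.25 in that fit, and no member passed. Without the HF75 array of Week 3, 1 member was higher (3.52% of all genes) and 1 lower (2.59%), and the median was -0.13, against 0.0024 over all genes. The brown adipocyte markers were lower in 8 of 9 cases, with a median of -1.44, and with -0.48 without that array. Their part was not tested.

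Slc25a12 ran from 0.36 to 1.48 in HF75 (median 0.94) and from -1.17 to 0.70 in HFC in the same weeks. It was higher at 6 of 6 weeks by 1.08 (SE 0.34, unadjusted p = 0.00446, adjusted p = 0.531 by limma). Without Week 3 of HF75 the difference was 1.02 (unadjusted p = 0.0113 by limma). Slc25a35 ran from -4.78 to -0.89 in HF75 (median -2.66) and was lower than HFC at 6 of 6 weeks. It differed by -2.29 (SE 0.84, unadjusted p = 0.0117), and without the HF75 array of Week 3 by -1.79 (unadjusted p = 0.0465 by limma). Its lowest value, on the HF75 array of Week 18, lay below the lowest signal well above background there, -2.47. With signals raised to that limit on each array the difference was -1.91.

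Slc25a24, a calcium-regulated carrier of ATP-Mg and phosphate, differed by 1.24 (SE 0.51, unadjusted p = 0.0223), and without Week 3 of HF75 by 0.95 (unadjusted p = 0.0785 by limma). Its second probe, well above background on 17 of 38 arrays, differed by 0.15 (p = 0.825 by limma). Slc25a42, the coenzyme A carrier, differed by -1.93 (SE 0.87, unadjusted p = 0.0356), with 3 of 6 HF75 arrays well above background. Without the HF75 array of Week 3 it differed by -1.21 (unadjusted p = 0.153 by limma). Slc25a20 ran from -0.90 to 0.60 in HF75 (median -0.21) and was lower than HFC at 6 of 6 weeks, by -1.52 (SE 0.75, unadjusted p = 0.0545). Without Week 3 of HF75 it differed by -1.27 (p = 0.125 by limma).

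The 3 doses were also tested against each other. The moderated F test called 7 of 39 members (17.9%) at an adjusted p under 0.05, where 13.8% of all genes were called. They included Slc25a35, Slc25a20, Slc25a24, Slc25a5, Slc25a1 and Slc25a33, with adjusted p from 0.0338 to 0.0439 by limma. None of the 7 was called with the brightness class as a covariate, and 0 members were called without the HF75 array of Week 3 or without the HF20 array of Week 6.

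All 3 pairs of doses were compared, each adjusted over all genes. Between HF20 and HF5 no member passed, and 22 of 39 had an unadjusted p under 0.05, where 36% of all genes did. Between HF75 and HF5 no member passed, and 1 had an unadjusted p under 0.05, where 2.34% of all genes did. Slc25a20 was 2.39 higher in HF20 than in HF5 (95% interval 0.84 to 3.95, adjusted p = 0.0664 by limma), and HF75 differed from HF5 by -0.92 (95% interval -2.47 to 0.64). Slc25a1 was 2.24 higher in HF20 than in HF5 (95% interval 0.59 to 3.88, adjusted p = 0.0743 by limma), and HF75 differed from HF5 by -0.75 (95% interval -2.40 to 0.89). Between HF75 and HF20, 17 members passed. Of these 14 were lower in HF75, where 13% of all genes were, and 3 were higher, where 12.9% were. The member median was -0.70, against 0.27 over all genes. With the brightness class as a covariate no member passed and the median was -0.29. Without the HF75 array of Week 3, 6 members passed, 5 of them lower, where 9.08% of all genes passed in either direction. Without the HF20 array of Week 6 no member passed and 0.134% of all genes did.

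**Figure D5:**
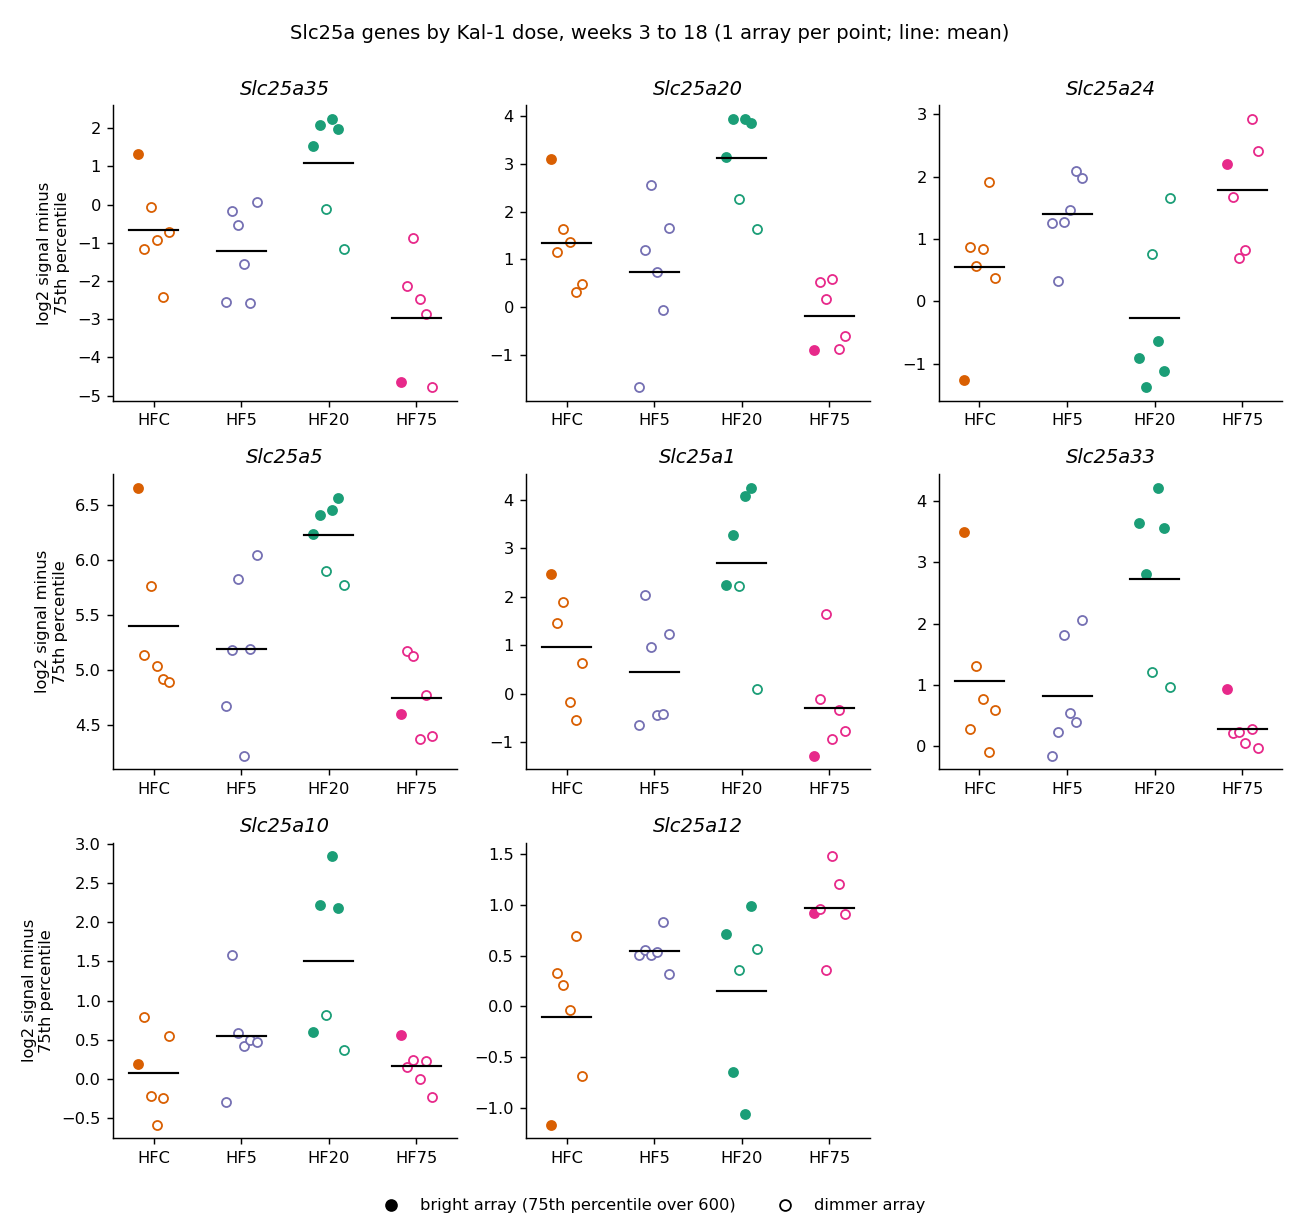
Log2 signal relative to the 75th percentile of the array (vertical axes) of 6 of the 7 members called among doses and of Slc25a10 and Slc25a12, in HFC, HF5, HF20 and HF75 at Weeks 3 to 18. Each point is 1 array, filled for the brighter arrays, and lines are group means. All HF20 arrays lie above all HF75 arrays in Slc25a20, Slc25a5 and Slc25a33, and 4 of the 6 HF20 arrays are brighter ones.

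Slc25a20 was at 1.64 to 3.94 in HF20 and at -0.90 to 0.60 in HF75, with no overlap. HF75 was lower than HF20 by -3.31 (SE 0.75, 95% interval -4.86 to -1.76, adjusted p = 0.0144 by limma), and by -1.96 with the class as a covariate (adjusted p = 0.225). The difference was -3.06 without the HF75 array of Week 3 (adjusted p = 0.0436 by limma) and -3.08 without the HF20 array of Week 6 (adjusted p = 0.0532 by limma). Groups that do not overlap were found for 6 of 39 members (15.4%), against 4.73% of all genes. The other 5 were Slc25a5, Slc25a11, Slc25a26, Slc25a33 and Slc25a44.

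Slc25a5 was at 5.77 to 6.56 in HF20 and at 4.38 to 5.18 in HF75, a difference of -1.48 (SE 0.37, adjusted p = 0.0152 by limma). With the class as a covariate it was -0.90 (adjusted p = 0.247 by limma). The probe was saturated on 10 arrays, which bounds its high values. Slc25a1 was at 0.10 to 4.25 in HF20 and at -1.28 to 1.65 in HF75, and these ranges overlap. The difference was -2.99 (SE 0.80, adjusted p = 0.0173 by limma), and -1.54 with the class as a covariate (adjusted p = 0.308 by limma). With the HF75 array of Week 3 left out, Slc25a5 differed by -1.36 (adjusted p = 0.0439 by limma) and Slc25a1 by -2.68 (adjusted p = 0.0498 by limma).

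Slc25a35 had the largest difference among the members, -4.05 (SE 0.84, adjusted p = 0.0133 by limma), and -2.65 with the class as a covariate (adjusted p = 0.181 by limma). With the HF75 array of Week 3 left out, the difference was -3.55 (adjusted p = 0.0436 by limma). Slc25a33, a pyrimidine nucleotide carrier, differed by -2.46, and by -2.36 without that array (adjusted p = 0.0505 by limma). Slc25a24 was one of the 3 that were higher in HF75, by 2.06 (SE 0.51, adjusted p = 0.0148 by limma), with medians of 1.94 in HF75 and -0.77 in HF20. The others were Slc25a27, an uncoupling protein relative of brain, at 1.66, and Slc25a37 at 1.48. With the HF75 array of Week 3 left out, Slc25a24 was higher by 1.77 (adjusted p = 0.0442 by limma), Slc25a27 by 1.61 (adjusted p = 0.0628) and Slc25a37 by 1.53 (adjusted p = 0.055). All 3 were lower on the brighter arrays over the whole series, by -1.85, -1.42 and -2.25.

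A list of 26 other gene names tied to mitochondrial traffic, among them uncoupling proteins, porins, carnitine palmitoyltransferases and shuttle enzymes, gave the following counts. It includes Mcart1 and Mcart6, which RefSeq lists as Slc25a51 and Slc25a53. Between the diets 0 of 26 passed, and the median was -0.16. At an unadjusted p under 0.05, 2 were higher (4.57% of all genes) and 2 lower (2.24%). The higher ones were Ucp1 at 1.17 (SE 0.33, unadjusted p = 0.0039 by limma) and Gpd1, the cytosolic glycerol phosphate dehydrogenase, at 0.90 (SE 0.35, unadjusted p = 0.0229 by limma). With the brightness class as a covariate, 5 were higher at an unadjusted p under 0.05 (3.97% of all genes) and 2 lower (2.65%). The median of the 26 was then 0.18, with 19 above 0 and 7 below, where the fit without it had 8 above and 18 below. For HF20, 16 of 26 were higher (13.4% of all genes) and 0 lower (19.4%) at an unadjusted p under 0.05. Their median was 1.09, against -0.18 over all genes, and 0 passed. With the brightness class as a covariate 1 was higher (0.412% of all genes) and the median was 0.28. Without the HF20 array of Week 6, 4 were higher (6.87%), with a median of 1.03. Got1, a transaminase of the malate-aspartate shuttle, was at 1.06, the porin Vdac1 at 1.26 and Bcat2, the mitochondrial branched-chain transaminase, at 1.25.

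For HF75, 3 of the 26 were lower (4.31% of all genes) and 0 higher (4.95%) at an unadjusted p under 0.05, with a median of -0.84. These were Ucp1 at -2.26, Ucp3 at -2.30 and Brp44l, a subunit of the pyruvate carrier, at -1.15. With the brightness class as a covariate, 12 were lower at that unadjusted p (8.29% of all genes) and 0 higher (8.39%). The median was again -0.84 in that fit, and 0 passed. Without the HF75 array of Week 3, 0 of the 26 were lower at an unadjusted p under 0.05 (2.59% of all genes), and the median was -0.49. Ucp1 was then at -0.78, Ucp3 at -1.53 and Brp44l at -0.84. For HF5, 0 were higher and 0 lower, where 3.46% and 2.05% of all genes were. Over diet by day 2 were higher (13.2% of all genes), Gpd1 and Ucp1, and over days in both diets 1 was lower (6.52%), Ucp3. The F test among doses called 12 of 26, where 13.8% of all genes were called, and 0 without the HF75 array of Week 3, without the HF20 array of Week 6 or with the brightness class as a covariate. HF20 had most of the brighter arrays here too.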

How the data were processed

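Total RNA of brown adipose tissue was labelled with Cy3 and hybridised to custom Agilent mouse arrays with 1 colour. The submitters' notes name Feature Extraction 9.1 and the file headers 10.5.1.1. The deposited scanner files hold intensity values that the authors had corrected for background but not scaled between arrays. The authors' deposited table of log2 ratios to LFC, with its own scaling, matched the scanner values at a correlation of 0.982 to 1 and a slope of 0.998 to 1.01, with the 4 columns of Week 15 read in array order, and served as an alternative. No sample column was left unmapped (0). The 38 arrays lay on 32 slides and were scanned on 12 days.

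Groups and time points were taken from the labels. The submitters' design text speaks of 3 biological replicates, while the labels used here give 1 array per group and time point. Weeks were counted from day 14, so days on diet are 14 plus 7 per week, and Day 14 and Week 0 are the same day. The log2 of processed signal minus the 75th percentile of the array was used, with the probe of highest mean for each of 29411 gene names (40628 probes, 64 of them Slc25a). Genes well above background on at least 6 arrays were fitted with limma 3.58.1 in R 4.3.3 (package data.table, version 1.17.8), and p-values were two-sided and adjusted by Benjamini-Hochberg over 21625 genes. Diets were compared over 20 arrays, and doses over the 30 arrays of Weeks 3 to 18 in 1 fit, both with time point as a block. The block rests on the labels, which give each group the same time points. At Week 9 the LFC array was scanned on another day than the arrays of the other groups. At Week 6 the HF20 and HF75 arrays were scanned on another day than those of LFC, HFC and HF5. The scripts were tested on simulated data, and the number of arrays limits the precision. Alternatives were quantile scaling, normexp (offset 50), other filters and probes, covariates, slide, array weights, no block and left-out arrays.

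Members named in full are Slc25a1, a3, a4, a5, a10, a11, a20 and a44, the 5 of highest mean, the 3 of widest SD and the 4 of smallest p in each comparison. One member stays in the fits and counts but is not reported here. Others were chosen after their values were seen. Members, lists, the boundary of 600 for bright arrays and the HF75 array of Week 3 were chosen with earlier results of these data known. Accessions of 41 members matched RefSeq, all 41 with the same symbol.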

Additional observations from a re-analysis of the deposited data

Results flagged for a closer look

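In 120 groups of 6 to 10 arrays over 24 members, 8 single arrays stood far from the rest of their group, and chance marks about 1 in 20 such groups. Values are log2 signals relative to the 75th percentile of the array.

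On the HFC array of Day 10, Slc25a34 was at 4.64, with the next value at 1.28, and Slc25a32 at -2.19, with the next at -0.87. On the HF75 array of Week 3, Slc25a33 was the highest at 0.924, with the next at 0.281. Slc25a4 was highest on the HF75 array of Week 12, at 6.5 against 5.46, where the skeletal muscle markers had their highest mean of all arrays, 5.27. Slc25a4 is the ADP/ATP carrier of heart and muscle. The part of muscle RNA in that value was not tested.

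On the HF20 array of Week 18, Slc25a38 was at -0.176 against 0.24 and Slc25a42 at -3.87 against -1.44. Slc25a38 was also highest on the HF5 array of Week 12, at 1.76 against 0.753. Slc25a36, a pyrimidine nucleotide carrier, was lowest on the LFC array of Day 14, at -3.28 against -2.5.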

How the results depend on the processing

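No member was called in HFC against LFC, in HFC against LFC at Weeks 3 to 18, in HF5 or in HF75 under any alternative run. Differences among doses called 7 members (17.9%), where 13.8% of all genes were called, and depended on the setting. The count was 0 with normexp, with no filter, with the brightness class, the log2 75th percentile or the muscle markers as a covariate, without the HF75 array of Week 3, without the HF20 array of Week 6 (chosen after seeing the data), and in the deposited table without Week 15. It was 13 with genes above background on every array, 12 with the mean of probes, 18 with slide as a random block, 22 with array weights, and 0 to 16 when single weeks were left out (15 without Week 9, 16 without Week 18). With no replicate block it was 4. HF75 against HF20 called 17 members, 14 with no replicate block, 0 with the brightness class or without the HF20 array of Week 6, and 6 without the HF75 array of Week 3, all chosen after seeing the data. The block changed no other count of called members where it was left out. HF20 against HFC called 13 with array weights and 0 to 6 when weeks were left out (6 without Week 3). Diet by day called 2 with the brightness class, with array weights and without Week 0 (range 0 to 2). Trend over days called 1 with quantile scaling or normexp, 3 with the brightness class or array weights, and 0 to 1 when time points were left out (1 without Day 6 or Week 12). Where no share of all genes stands beside a count here, the count does not show a change particular to the carriers.

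Of 14 genes with 2 or more tested probes, 10 had the same sign in all of them between the diets, and Slc25a4, Slc25a27, Slc25a33 and Slc25a46 did not. Other sign changes were found among the members named in each comparison. "Slc25a20, HFC against LFC" was -0.010 without Day 10, or without the HFC array of that day, in a range of -0.010 to 0.84 over left-out time points, and -0.16 with normexp at Weeks 3 to 18. "Slc25a20, diet by day" was -0.53 with normexp, -0.66 without Week 0, -0.0058 without Week 18 or its HFC array (range -0.66 to 1.28), and -0.19 with Day 14 and Week 0 averaged. In HF5 against HFC, Slc25a20 ran from -0.96 to 0.23 and Slc25a1 from -0.72 to 0.019 when single weeks were left out, both highest without Week 3. Slc25a38, diet by day, was 0.092 and Slc25a29, trend over days, 0.31 with normexp. Slc25a33 in HF20 minus HF5 was -0.10 with the brightness class. The causes were not tested. Raising signals to the lowest one above background moved 21 group levels by more than their spread, and 189 stayed within it.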
